A study of Mus musculus with 11 samples.

Results

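The 9 genes described here were chosen because their signals fell in 2 knockdowns of the p53 pathway, that of p53 itself and that of the long non-coding RNA Pint. They are Gpx3, Ccdc3, Efna3, Adam8, Cd68, Ikbke, Ppef1, Tcea3 and Des. The rule took genes whose array value was lower both with p53 siRNA and with Pint antisense oligonucleotides, each against its own control, and each gene was read from the probe set that names it alone. Each of the 9 genes had 1 such probe set, out of 21640 with a single gene symbol among 34760 on the array. All 9 passed the filter on low values, beside 26038 probe sets and 16147 genes in all, and their values ran from 6.81 to 10.89 on the log2 scale. By the same call, 483 of the 16147 genes (2.99%) were lower in both knockdowns, so the 9 genes are a small selection of that set, which held 293 genes without the first control ASO array and 190 with each knockdown fitted alone with its control.

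p53 is a transcription factor that DNA damage stabilizes and that activates genes of cell cycle arrest, apoptosis and redox control. Pint is a long intergenic non-coding RNA whose gene is itself a p53 target. A gene that p53 keeps active, directly or through other genes, has less RNA when p53 is depleted. The study read the effect of Pint on expression from the Pint ASO arrays. It then used the p53 siRNA arrays to compare the genes affected by each knockdown.

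The cells were p53LSL/LSL mouse embryonic fibroblasts (MEFs) of a mixed C57BL/6 and 129/SvJ background, in which a removable stop cassette silences the p53 gene. All 4 groups, the controls included, were given AdenoCre virus (multiplicity of infection 5, 24 h) to restore p53, then the transfection, and 24 h later 150 nM doxorubicin, a DNA-damaging drug, for 12 h. The groups were control siRNA (3 arrays), p53 siRNA (3 arrays), control ASO (2 arrays) and Pint ASO (3 arrays). For the arrays the study describes the Pint ASO as a mixture of oligonucleotides, so that no single one can be read apart. No group without doxorubicin, without Cre or without transfection was analysed here, so each value describes cells that carried restored p53 and DNA damage. The labels do not say whether the arrays of a group came from separate cultures, so the SEs and p-values cover only how far these samples vary, which may be technical variation.

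Array medians lay between 7.31 and 7.38, and arrays of a group correlated at 0.991 to 0.995 over the probe sets against 0.971 to 0.991 between groups. The Pint probe set (Lncpint) changed by -1.78 (SE 0.12) with the Pint ASO and by -0.54 (SE 0.11) with p53 siRNA, and it was higher by 0.71 (SE 0.12) in control ASO than in control siRNA (limma, adjusted p = 0.0137). The p53 RNA level was not analysed here. All 12 fibroblast markers were detected, with 8 called higher with p53 siRNA and 10 called lower with the Pint ASO. Their summed level was 15.86 to 15.90 (log2) in control siRNA, 16.12 to 16.14 in p53 siRNA, 15.78 to 15.79 in control ASO and 15.38 to 15.43 in Pint ASO. This sum was thus higher with p53 siRNA and lower with the Pint ASO. Of the markers, Thy1 and Dcn passed only with the Pint ASO, and Fn1 and Twist1 passed in neither knockdown. The part of fibroblast content in the falls of the 9 genes was not tested.

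Because the values of both knockdowns chose the genes, their changes are given as a description with a standard error and no test. All 9 were called lower with p53 siRNA (8.96% of all probe sets were, and 7.97% were higher) and all 9 were called lower with the Pint ASO (10.7% of all probe sets were, and 8.49% were higher), and nothing is read from these counts. The median change of the 9 was -0.87 with p53 siRNA and -0.74 with the Pint ASO, beside 0.01 and 0.00 over all probe sets tested and -0.42 and -0.35 over the 483 genes called lower in both. In bulk samples, fewer cells of a type and less RNA per cell cannot be told apart, and this holds for each gene below. Values are log2 intensities after robust multi-array averaging (RMA), and a level of 1 gene is not set against that of another.

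**Figure D1:**
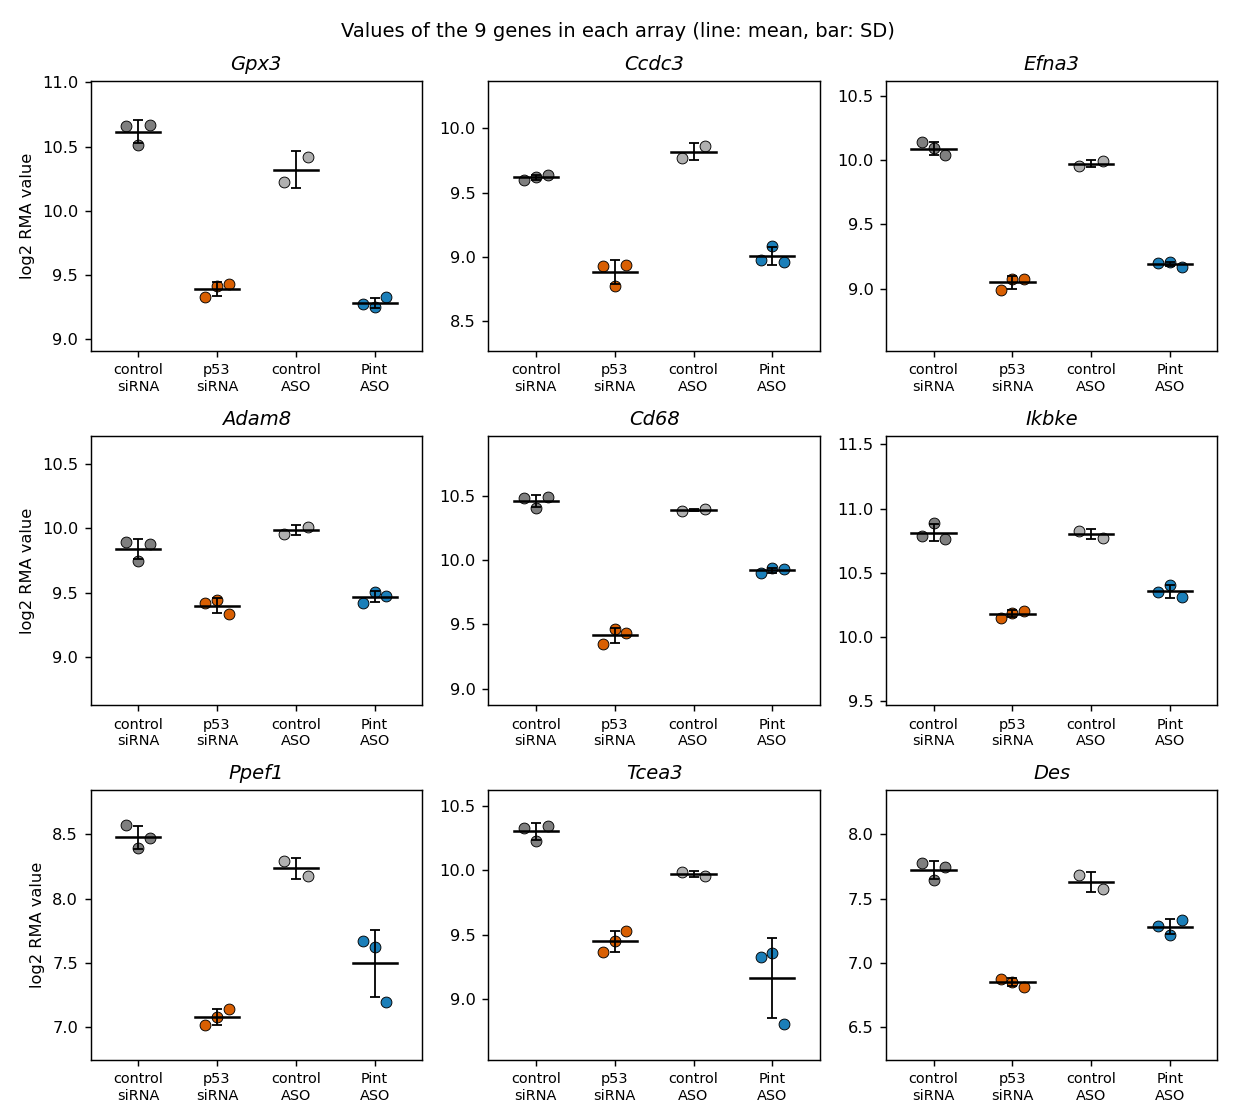
Each panel plots 1 gene, with the log2 RMA value on the vertical axis and the 4 groups on the horizontal axis. Points are arrays, lines are group means and bars are SD; in every panel the knockdown arrays lie below all arrays of their own control, and for Ppef1 and Tcea3 the third Pint ASO array lies below the other 2.

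Gpx3 encodes the secreted, selenium-containing glutathione peroxidase of plasma, which reduces peroxides outside the cell. Its value was 10.66, 10.51 and 10.67 in the control siRNA arrays and 9.33, 9.42 and 9.43 in the p53 siRNA arrays. It was 10.22 and 10.42 in the control ASO arrays and 9.28, 9.25 and 9.33 in the Pint ASO arrays. Every knockdown array was below every control array of either kind. The change was -1.22 (SE 0.07) with p53 siRNA, which left 42.8% of the control signal, and -1.04 (SE 0.07) with the Pint ASO, which left 48.8%. By the smaller of the 2 falls it stood beside Pm20d1 at the top of the 483 genes, where both smaller falls were those with the Pint ASO, at -1.04 (SE 0.07) and -1.02 (SE 0.11), a gap within these errors. The 2 control ASO arrays differed, and the Pint ASO change was -1.14 without the first and -0.94 without the second.

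Ccdc3 encodes a secreted coiled-coil protein. The control siRNA arrays read 9.60, 9.62 and 9.63, the p53 siRNA arrays 8.93, 8.77 and 8.94. In the ASO groups the values were 9.77 and 9.86 for the control and 8.98, 9.09 and 8.96 for Pint. Control and knockdown did not overlap, and the control ASO arrays lay above all control siRNA arrays. Ccdc3 changed by -0.74 (SE 0.06) with p53 siRNA and by -0.81 (SE 0.07) with the Pint ASO, leaving 59.9% and 57.0% of the control signals.

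Efna3 encodes ephrin-A3, a ligand held to the membrane by a lipid anchor that signals to Eph receptors on neighbouring cells. It read 10.14, 10.09 and 10.04 with control siRNA and 8.99, 9.08 and 9.08 with p53 siRNA. With control ASO it read 9.96 and 9.99, and with the Pint ASO 9.20, 9.21 and 9.17. The arrays of each group lay close together, and no knockdown array came near a control array. The changes were -1.04 (SE 0.05) and -0.78 (SE 0.05), which left 48.6% of the signal with p53 siRNA and 58.2% with the Pint ASO.

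Adam8 encodes a membrane metalloprotease-disintegrin that sheds proteins from the cell surface and is best known from leukocytes. The 3 control siRNA values were 9.89, 9.75 and 9.88, and the 3 p53 siRNA values were 9.42, 9.44 and 9.33. The control ASO values were 9.96 and 10.01 and the Pint ASO values 9.42, 9.51 and 9.47. The groups did not overlap, although the gap between the lowest control and the highest p53 siRNA array was the smallest of the 9 genes for that knockdown. Adam8 changed by -0.44 (SE 0.05) with p53 siRNA, the smallest of the 9 falls there, and by -0.52 (SE 0.06) with the Pint ASO, leaving 73.6% and 69.8%.

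Cd68 encodes a heavily glycosylated protein of late endosomes and lysosomes, of the LAMP family, which is used as a macrophage marker. Its control siRNA values were 10.48, 10.40 and 10.49 and its p53 siRNA values 9.35, 9.46 and 9.43. Its control ASO values were 10.39 and 10.40 and its Pint ASO values 9.90, 9.94 and 9.93. The p53 siRNA arrays were the lowest, the Pint ASO arrays lay between them and the controls, and none of the 3 levels overlapped. Cd68 changed by -1.04 (SE 0.05) with p53 siRNA and by -0.47 (SE 0.05) with the Pint ASO, so that 48.5% and 72.2% of the signal was left.

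Ikbke encodes IKK epsilon, a kinase that acts with TBK1 in interferon and NF-kappaB signalling. With control siRNA the values were 10.79, 10.89 and 10.76, and with p53 siRNA 10.15, 10.19 and 10.20. With control ASO they were 10.83 and 10.78, and with the Pint ASO 10.35, 10.41 and 10.31. The control arrays of both kinds overlapped each other and stood apart from both knockdowns. The changes were -0.63 (SE 0.05) and -0.45 (SE 0.05), leaving 64.6% with p53 siRNA and 73.4% with the Pint ASO.

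Ppef1 encodes a serine/threonine protein phosphatase with EF-hand calcium-binding motifs, known from sensory neurons. The control siRNA arrays gave 8.57, 8.39 and 8.47 and the p53 siRNA arrays 7.02, 7.08 and 7.14. The control ASO arrays gave 8.30 and 8.18 and the Pint ASO arrays 7.67, 7.63 and 7.19. All knockdown arrays were below the controls, and the Pint ASO group was spread by its replicate 3, the lowest of that group. The change with p53 siRNA was -1.40 (SE 0.12), the largest fall of the 9 genes, which left 37.9%. With the Pint ASO it was -0.74 (SE 0.13), which left 59.8%, and without the third Pint ASO array it was -0.59. The p53 siRNA values and the third Pint ASO value lay below the lowest array median of 7.31, so background may hold part of the signal that was left there.

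Tcea3 encodes a tissue-restricted member of the TFIIS family, which helps stalled RNA polymerase II to resume elongation. Control siRNA arrays read 10.33, 10.23 and 10.35, and p53 siRNA arrays read 9.37, 9.45 and 9.53. Control ASO arrays read 9.99 and 9.95, and Pint ASO arrays read 9.33, 9.35 and 8.80. The knockdown arrays again lay below their controls, and the third Pint ASO array was the lowest of all 11. Tcea3 changed by -0.86 (SE 0.13) with p53 siRNA and by -0.81 (SE 0.14) with the Pint ASO, leaving 55.3% and 57.1%, and without the third Pint ASO array the latter change was -0.63.

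Des encodes desmin, the intermediate filament protein of muscle cells. Its values were 7.78, 7.64 and 7.75 with control siRNA and 6.88, 6.85 and 6.81 with p53 siRNA. They were 7.69 and 7.57 with control ASO and 7.29, 7.22 and 7.34 with the Pint ASO. The p53 siRNA arrays were lowest and the Pint ASO arrays intermediate, without overlap. The change was -0.87 (SE 0.06) with p53 siRNA and -0.35 (SE 0.06) with the Pint ASO, which left 54.6% and 78.6%. All values of Des were near the array medians of 7.31 to 7.38. The p53 siRNA values lay below them, as did the first and the second Pint ASO value. Background may thus hold part of the signal, and the percentages left are uncertain. The Pint ASO fall was the smallest of the 9 genes.

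For all 9 genes the knockdown arrays lay wholly below their control arrays, in both knockdowns. That was so for 18.6% of all probe sets with p53 siRNA and for 22.2% with the Pint ASO. When the ASO arrays were fitted alone, without the spread estimate of the siRNA arrays, 6 of the 9 were called with the Pint ASO, and Ppef1, Tcea3 and Des were not. The share of all probe sets called in that fit is not given here, and this contrast helped to choose the genes. Nothing is therefore read from the count.

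Ranked by the smaller of its 2 falls among the 483 genes, Gpx3 was at place 1, Tcea3 at 4, Efna3 at 5, Ppef1 at 7 and Ccdc3 at 8. The other genes of the top 10 were Pm20d1, Dpyd, Col10a1, Lhfpl1 and Ces2g. Cd68 was at place 74, Ikbke at 83, Adam8 at 86 and Des at 168. Around Des, the last of the 9, Abcb1a at place 167 and Ecm1 at place 169 had a smaller fall of 0.35 as Des had. The 9 genes are thus not the 9 with the largest shared falls, and 5 of them fell by at least 0.5 in both knockdowns.

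**Figure D2:**
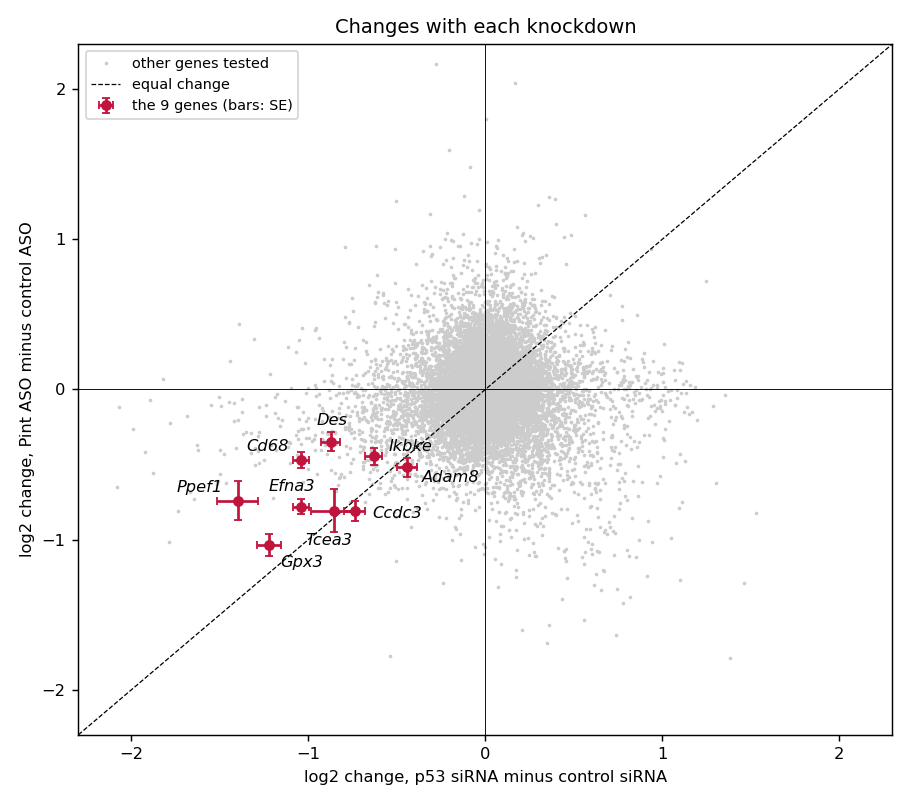
The log2 change with p53 siRNA (horizontal axis) is plotted against that with the Pint ASO (vertical axis), with 1 grey point per other gene tested and the 9 genes in red with SE bars. The 9 genes lie at the lower left, 7 of them above the dashed line of equal change, where the fall with p53 siRNA was the larger.

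The size of the shared fall differed among the genes. For 7 of the 9 the fall was larger with p53 siRNA, and for Ccdc3 and Adam8 it was larger with the Pint ASO. The change with the Pint ASO as a share of the change with p53 siRNA was 39.8% for Des, 45.1% for Cd68, 53% for Ppef1, 70.7% for Ikbke, 75.0% for Efna3, 84.7% for Gpx3, 94.6% for Tcea3, 110% for Ccdc3 and 117% for Adam8. For Des and Ppef1 the share rests in part on values below the array medians, where background may enter. The difference between the effects, Pint ASO minus p53 siRNA, was 0.66 (SE 0.17) for Ppef1, 0.57 (SE 0.07) for Cd68, 0.53 (SE 0.08) for Des and 0.26 (SE 0.07) for Efna3. It was 0.19 (SE 0.10) for Gpx3, 0.18 (SE 0.07) for Ikbke, 0.05 (SE 0.19) for Tcea3, -0.07 (SE 0.09) for Ccdc3 and -0.08 (SE 0.08) for Adam8. These differences are made of the contrasts that chose the genes and were given no test.

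Each knockdown had its own control, and the controls can be set against each other in a contrast that the rule did not use, although both rule contrasts share its arrays. By limma, 0 of the 9 genes were called between control ASO and control siRNA (4.02% of all probe sets were), and 5 had an unadjusted p under 0.05 (17.8% of all did). The largest differences were those of Tcea3 at -0.33 (SE 0.14, adjusted p = 0.265) and Gpx3 at -0.29 (SE 0.07, adjusted p = 0.0648). Gpx3 passed with an intensity trend in the fit (adjusted p = 0.0380), without the unnamed probe sets (0.0384) and without the second control ASO array (0.0485), and Tcea3 passed without the third Pint ASO array (0.0262). In sign, 7 of the 9 genes were lower in control ASO than in control siRNA, and Ccdc3 and Adam8 were higher, by 0.20 (SE 0.07, limma adjusted p = 0.141) and 0.15 (SE 0.06, adjusted p = 0.251). The 7 that were lower in control ASO are the 7 whose fall was larger with p53 siRNA, and a higher or lower control enters both numbers, since the controls are shared.

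**Figure D3:**
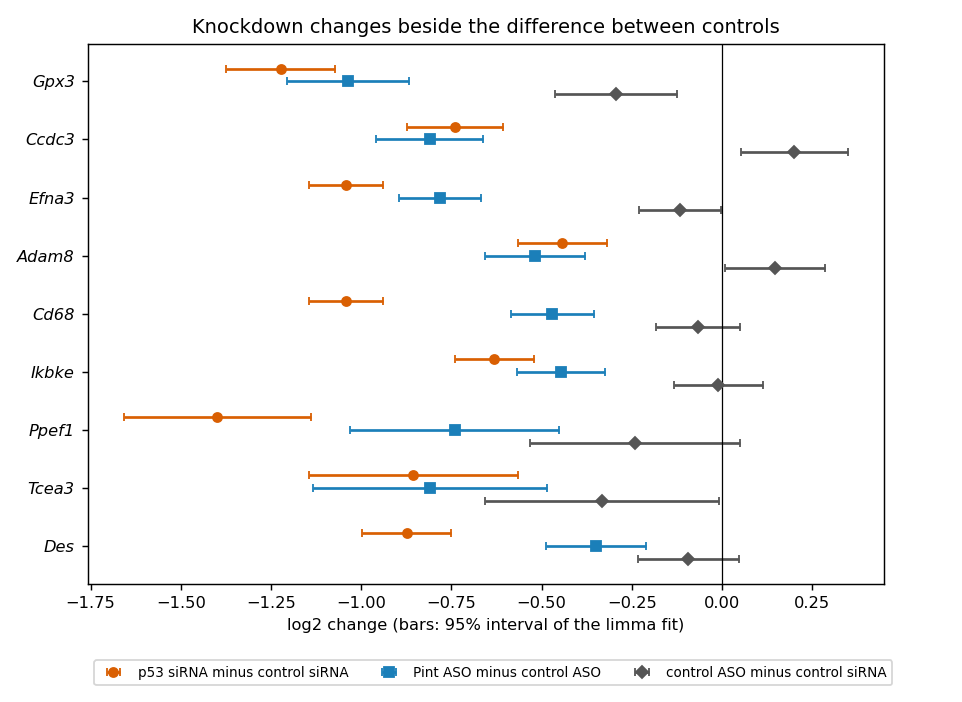
For each of the 9 genes the log2 change is plotted with its 95% interval for p53 siRNA against control siRNA (circles), Pint ASO against control ASO (squares) and control ASO against control siRNA (diamonds). The knockdown changes lie between -1.40 and -0.35, and the control differences between -0.33 and 0.20.

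The genes rose and fell together across groups and less so within them. Over the 11 arrays the 36 pairs of genes had correlations (Pearson r) of 0.697 to 0.989, with a median of 0.917, which group means that the rule fixed largely set. With the group means removed, the pairs ran from -0.664 to 0.960 with a median of 0.110. The highest was that of Ppef1 and Tcea3 at 0.960, and without the third Pint ASO array it was 0.759 over the other 10. These are descriptions over arrays that share their normalization.

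The mean of the 9 genes, each centred on its own mean, was 0.43 to 0.51 in the control siRNA arrays, 0.38 and 0.39 in the control ASO arrays, -0.47 to -0.42 in the p53 siRNA arrays and -0.35 to -0.23 in the Pint ASO arrays. Efna3 followed this mean most closely of the 9 (r = 0.996 over 11 arrays) and Tcea3 least (0.892). Each of the 9 is part of the mean, so its r is not set against that of a gene outside. The group means that the rule fixed largely set these correlations too. Outside the 9, the 5 genes most like the mean were Slc2a9 (0.991), Cercam (0.989), Cd109 (0.988), Bscl2 (0.987) and Pm20d1 (0.987). Slc2a9, a urate transporter, changed by -1.03 (SE 0.05) with p53 siRNA and by -0.61 (SE 0.05) with the Pint ASO. Pm20d1, a secreted enzyme that makes N-acyl amino acids, changed by -1.79 (SE 0.10) and -1.02 (SE 0.11). The Pint probe set itself correlated with the mean at 0.761, with its own low point in the Pint ASO arrays.

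Promoters are shown for 4 of the genes, Gpx3 and Efna3 because they had large and tightly measured falls in both knockdowns, and Cd68 and Ikbke because theirs held a match to a searched motif. Each runs from 250 bases before to 50 bases after the RefSeq start site, on the strand of the gene, in build GRCm38.p6. The motifs were the p53 half-site (10 bases, by its usual consensus, with no mismatch), the AP-1 motif TGANTCA and an NF-kappaB motif of the same length as the half-site, on both strands, and the capitals mark the matches. The first line is Gpx3 at chr11:54902604-54902903 on the plus strand, the second Efna3 at chr3:89322890-89323189 on the minus strand, the third Cd68 at chr11:69666121-69666420 on the minus strand and the fourth Ikbke at chr1:131279514-131279813 on the minus strand.
Gpx3: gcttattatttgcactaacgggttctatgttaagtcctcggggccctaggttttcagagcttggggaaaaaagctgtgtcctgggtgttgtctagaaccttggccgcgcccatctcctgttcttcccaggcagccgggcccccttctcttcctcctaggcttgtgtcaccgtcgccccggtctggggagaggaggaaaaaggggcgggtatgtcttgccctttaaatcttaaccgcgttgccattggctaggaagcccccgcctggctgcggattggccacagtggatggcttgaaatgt
Efna3: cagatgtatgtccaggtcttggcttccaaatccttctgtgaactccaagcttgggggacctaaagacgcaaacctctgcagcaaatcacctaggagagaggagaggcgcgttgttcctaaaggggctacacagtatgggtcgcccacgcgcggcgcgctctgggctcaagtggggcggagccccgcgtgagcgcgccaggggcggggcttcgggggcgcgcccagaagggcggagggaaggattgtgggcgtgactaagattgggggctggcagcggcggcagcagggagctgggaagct
Cd68: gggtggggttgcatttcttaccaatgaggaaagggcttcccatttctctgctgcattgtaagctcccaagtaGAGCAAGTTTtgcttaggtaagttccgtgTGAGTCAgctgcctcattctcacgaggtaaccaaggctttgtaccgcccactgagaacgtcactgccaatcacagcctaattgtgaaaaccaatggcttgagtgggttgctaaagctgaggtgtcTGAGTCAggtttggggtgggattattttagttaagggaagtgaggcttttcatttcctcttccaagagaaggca
Ikbke: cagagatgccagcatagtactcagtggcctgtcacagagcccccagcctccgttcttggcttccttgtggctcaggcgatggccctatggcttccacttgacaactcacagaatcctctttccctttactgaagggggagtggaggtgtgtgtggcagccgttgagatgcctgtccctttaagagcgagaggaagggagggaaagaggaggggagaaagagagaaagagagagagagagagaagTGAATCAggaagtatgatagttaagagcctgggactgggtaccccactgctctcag
The Cd68 promoter held a p53 half-site that began 178 bases before the start site and AP-1 matches that began 149 and 24 bases before it. Ikbke held an AP-1 match that began 6 bases before the start site. None of the other 7 genes held a match to any of the 3 motifs in this window, the second start site of Efna3 included, which says only that these letters are not in these bases. Among all 32841 promoters of the table, 8.36% held a p53 half-site, 7.81% an AP-1 match and 1.63% an NF-kappaB match. CG dinucleotides ranged from 2 in the Ppef1 promoter to 28 in that of Ccdc3 and 34 at the second start site of Efna3, with a median of 7 over all promoters. A match is a description of sequence and no measurement of binding.

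The nearest genes were read beside the 9. Of the 54 protein-coding genes that lie within 3 places of the 9 in gene order, a set chosen after the values of the 9 were seen, 49 were tested. With p53 siRNA 5 were called lower (10.2%, beside 8.96% of all probe sets) and 5 higher, and with the Pint ASO 9 lower (18.4%, beside 10.7%) and 5 higher. The neighbours are named genes, while all probe sets include unnamed ones, so these bases are unlike. By limma 0 of the 49 were called lower in both, where 2.99% of all genes were, and a count this small does not set the neighbours apart. Efna3 lies between Efna1 and Efna4, which encode ephrins of the same class. Efna1 changed by -0.17 (SE 0.07) and -0.19 (SE 0.07) and Efna4 by -0.23 (SE 0.09) and -0.25 (SE 0.10), none of which passed. In second place after Gpx3, Anxa6, which encodes a membrane-binding annexin, rose by 0.29 (SE 0.04) with p53 siRNA and fell by 0.33 (SE 0.05) with the Pint ASO. Next to Ppef1, Phka2, which encodes a subunit of phosphorylase kinase, rose by 0.27 (SE 0.04) and fell by 0.58 (SE 0.05). The neighbours of Cd68 on either side, Mpdu1 and Eif4a1, passed in neither.

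Genes of the same families and pathways were listed by family membership, 88 in all, of which 85 had a probe set and 80 were tested. With p53 siRNA 15 were called lower and 7 higher, 27.5% of the 80 beside 16.9% of all probe sets. With the Pint ASO 25 were called lower and 13 higher, 47.5% beside 19.1%. These 38 were 23 without the first control ASO array or the first Pint ASO array, 24 without the second control ASO array and 10 with each knockdown fitted alone with its control. The lists hold correlated families and were chosen with results of these arrays known, so the shares are given as a description. The 80 are named genes, each read from its brightest probe set, while the shares of all probe sets include unnamed ones. These bases are unlike, and the gaps between them are not read. Of the 80, 4 were called lower in both knockdowns (5% beside 2.99% of all genes) and 9 in opposite directions (11.2% beside 4.89%), and the effects of the 2 knockdowns differed by limma for 37 (18.5% of all probe sets did).

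Around Gpx3, 1 of 6 other glutathione peroxidases was called lower with p53 siRNA and 3 with the Pint ASO, none in both. Gpx6 fell by 0.62 (SE 0.11) with p53 siRNA and changed by -0.35 (SE 0.13, limma adjusted p = 0.0919) with the Pint ASO, a change that was -0.56 (adjusted p = 0.0189) without the first control ASO array and -0.14 without the second. Gpx4, which protects membrane lipids, fell by 0.33 (SE 0.08) with the Pint ASO and changed by 0.12 (SE 0.07) with p53 siRNA. Gpx1, the cytosolic enzyme, fell by 0.27 (SE 0.06) with the Pint ASO, and Gpx7 by 0.32 (SE 0.09). Of 14 genes of glutathione synthesis, reduction and selenoprotein supply, 2 were lower and 2 higher with p53 siRNA, and 4 lower and 2 higher with the Pint ASO. Gclc and Gss, which encode enzymes of both steps of glutathione synthesis, fell by 0.49 (SE 0.04) and 0.69 (SE 0.05) with p53 siRNA, while their Pint ASO changes were 0.07 (SE 0.05) and -0.12 (SE 0.05). Sod3, the extracellular superoxide dismutase, rose by 0.56 (SE 0.05) with p53 siRNA and fell by 0.98 (SE 0.06) with the Pint ASO. Selenop, a plasma carrier of selenium, fell by 0.73 (SE 0.10) with the Pint ASO and changed by 0.17 (SE 0.09) with p53 siRNA.

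The other TFIIS genes passed in neither knockdown. Tcea1, the ubiquitous form, changed by 0.15 (SE 0.05) and 0.04 (SE 0.05), and Tcea2 by -0.05 (SE 0.07) and -0.08 (SE 0.08). Among partners in elongation, Ell fell by 0.39 (SE 0.04) with p53 siRNA and was 0.16 (SE 0.04) higher with the Pint ASO, and Supt6, a histone chaperone, rose by 0.27 (SE 0.05) with the Pint ASO. Ell2 rose by 0.20 (SE 0.05) with the Pint ASO.

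Of 7 other ephrins, 3 were called lower with p53 siRNA, and 1 lower and 2 higher with the Pint ASO. Efnb2 fell by 0.38 (SE 0.05) with p53 siRNA and rose by 0.46 (SE 0.05) with the Pint ASO. Efna5 likewise fell by 0.22 (SE 0.05) and rose by 0.22 (SE 0.06), Efnb1 fell by 0.38 (SE 0.05) with p53 siRNA, and Efna2 fell by 0.43 (SE 0.07) with the Pint ASO. Among 11 Eph receptors, to which ephrins bind, 1 was lower and 3 were higher with p53 siRNA, and 5 were lower and 1 was higher with the Pint ASO. Epha2 fell by 0.57 (SE 0.05) with p53 siRNA and rose by 0.58 (SE 0.05) with the Pint ASO, and Epha3 rose by 0.52 (SE 0.09) and fell by 0.88 (SE 0.10). Ephb4 rose by 0.35 (SE 0.05) with p53 siRNA and Epha4 fell by 0.34 (SE 0.07) with the Pint ASO.

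Of the phosphatases nearest to Ppef1, Ppef2 changed by -0.03 (SE 0.11) and -0.11 (SE 0.13), and Ppp5c fell by 0.40 (SE 0.04) with p53 siRNA with a Pint ASO change of -0.09 (SE 0.05). Among 10 kinases, adaptors and substrates around Ikbke, 1 was lower and 1 higher with p53 siRNA, and 1 was lower and 3 higher with the Pint ASO. Tbk1, the closest relative of Ikbke, was 0.25 (SE 0.07) higher with the Pint ASO and changed by -0.14 (SE 0.07) with p53 siRNA. Irf7, an interferon factor that these kinases phosphorylate, rose by 0.63 (SE 0.04) with p53 siRNA and fell by 0.62 (SE 0.05) with the Pint ASO. Rela and Nfkbia, an NF-kappaB subunit and its inhibitor, rose by 0.24 (SE 0.05) and 0.26 (SE 0.07) with the Pint ASO.

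Among 10 other genes of the ADAM family, 2 were lower and 1 higher with p53 siRNA, and 5 lower and 2 higher with the Pint ASO. Adam12 rose in both, by 0.44 (SE 0.07) and 0.44 (SE 0.07), against the direction of Adam8. Adam19 fell by 0.39 (SE 0.05) with p53 siRNA and was 0.18 (SE 0.05) higher with the Pint ASO, where Adam23 fell by 0.48 (SE 0.07) and Adam15 by 0.29 (SE 0.04). Adam22, named after its values were seen, was the ADAM gene called lower in both, by 0.25 (SE 0.06) and 0.29 (SE 0.06). Lamp2, a major lysosomal membrane protein of the family of Cd68, fell by 0.23 (SE 0.06) with the Pint ASO, and Lamp1 passed in neither, at 0.00 (SE 0.04) and -0.04 (SE 0.04).

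The list around desmin held 3 of the 4 related genes that were called lower in both knockdowns. Of its 10 intermediate filament genes and desmin partners, 3 were lower with p53 siRNA and 5 with the Pint ASO, and none was called higher in either. Synm, which encodes synemin, a filament protein that assembles with desmin, fell by 0.71 (SE 0.05) and 0.19 (SE 0.06). Dsp, encoding desmoplakin, which ties filaments to desmosomes, fell by 0.64 (SE 0.08) and 0.32 (SE 0.09). Cryab, a small heat shock protein that binds desmin, fell by 0.36 (SE 0.08) and 0.36 (SE 0.09), and Sync, encoding syncoilin, fell by 0.44 (SE 0.06) with the Pint ASO. Vim, encoding vimentin, the filament protein of fibroblasts, changed by -0.06 (SE 0.04) and 0.00 (SE 0.04) and passed in neither. The Pint ASO calls of Synm, Dsp and Cryab lay close to the threshold.

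**Figure D4:**
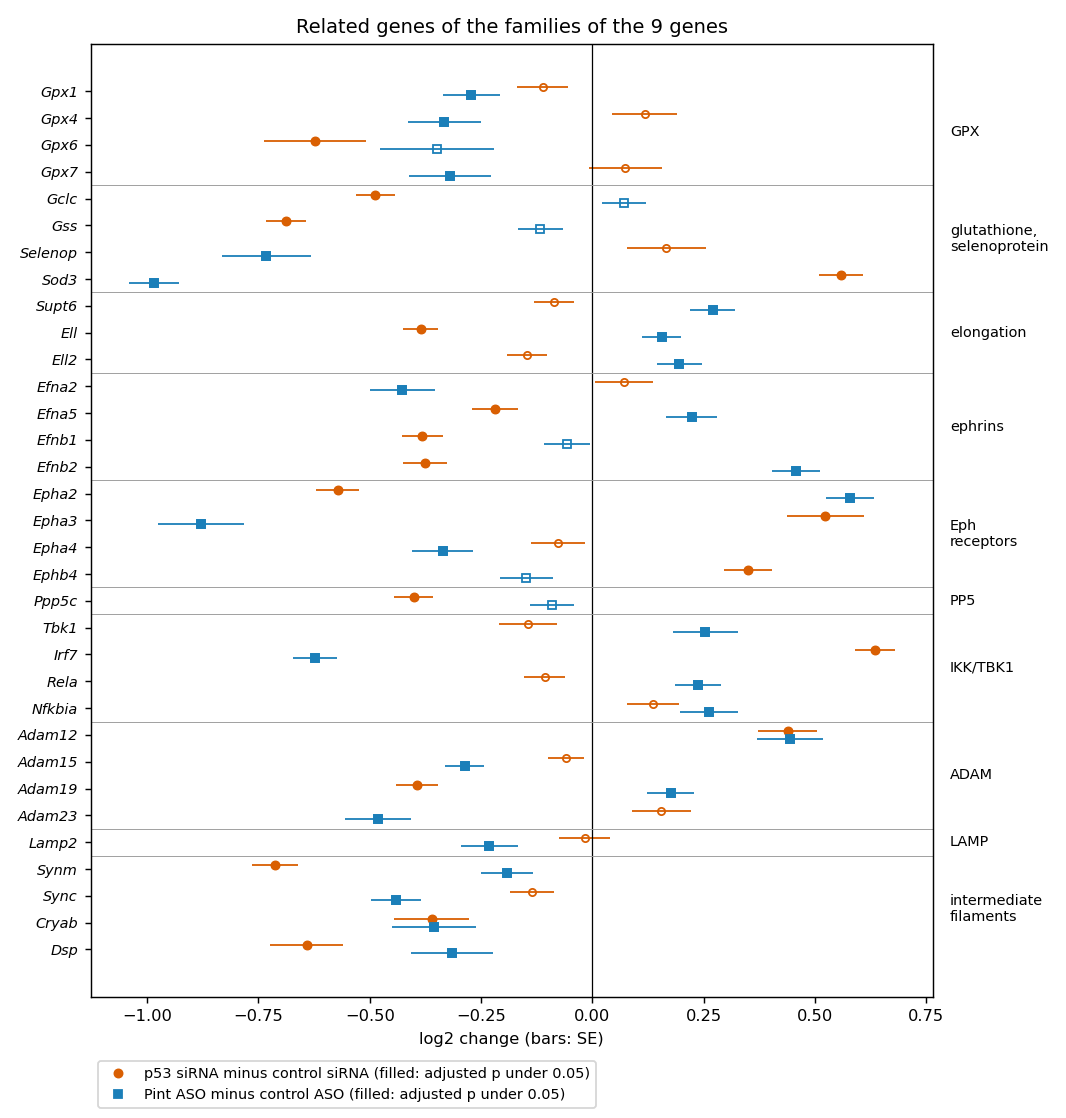
Log2 changes of the related genes chosen by rule from each family list, with SE bars, for p53 siRNA (circles) and the Pint ASO (squares). Filled symbols passed an adjusted p of 0.05; the symbols of Sod3, Epha2, Epha3, Irf7 and Efnb2 lie on opposite sides of 0, while those of Synm, Dsp and Cryab lie on the lower side.

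Several of these Pint ASO calls lay close to the threshold. Ell, Adam19 and Synm lost the call without any 1 of 10 of the 11 arrays, siRNA arrays included, at changes of 0.14 to 0.17, 0.14 to 0.21 and -0.22 to -0.17 (limma adjusted p of 0.0501 to 0.154, 0.0529 to 0.194 and 0.0517 to 0.198). Gpx7 lost it without any of 9 arrays, the second control ASO array among them. Its change was -0.50 without the first control ASO array and -0.14 without the second. Without the rest of the 9 it was -0.31 to -0.34 (limma adjusted p of 0.0509 to 0.0917). Tbk1 lost it without any of 7, the second control ASO array among them. Its change was 0.36 without the first control ASO array and 0.15 without the second. Without the rest of the 7 the adjusted p was 0.0522 to 0.108. Lamp2 and Dsp lost it without any of 7, at changes of -0.28 to -0.19 and -0.34 to -0.27 (0.0505 to 0.188 and 0.0523 to 0.168). Gpx4 lost it without either control ASO array or without the first or the third Pint ASO array, at -0.38 to -0.29 (0.0517 to 0.112). Ell2 lost it without either control ASO array or without the first or the second Pint ASO array, at 0.17 to 0.20 (0.0657 to 0.105), and Efna5 without either control ASO array or the first Pint ASO array, at 0.20 to 0.23 (0.0751 to 0.111). Gpx1 lost it without the second control ASO array (-0.18, adjusted p = 0.117) or the first Pint ASO array (-0.25, 0.0511). Nfkbia and Cryab lost it without the second control ASO array or the first or the second Pint ASO array, at 0.22 to 0.25 (0.0517 to 0.119) and -0.34 to -0.25 (0.0661 to 0.165). Epha4 and Rela lost it without the first control ASO array, at -0.26 (0.0697) and 0.16 (0.0842). With p53 siRNA, Cryab lost its call without the first or the third control siRNA array or the first p53 siRNA array, at -0.36 to -0.31 (0.0511 to 0.0621), and Efna5 without the third control siRNA array (-0.17, 0.0640) or the first p53 siRNA array (-0.19, 0.0649).

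Some of the 9 genes are markers of other cells, so the lists of those cells were read beside them. For Cd68, Adam8 and Ikbke, 14 of 16 macrophage and leukocyte markers were tested, and 1 was called with p53 siRNA, Cd14, which fell by 0.51 (SE 0.10), and 0 with the Pint ASO by limma. Ptprc and Adgre1 did not pass the filter on low values, with array values of 5.38 to 5.88 and 4.93 to 5.20. Other markers of these cells did pass it, Csf1r, Itgb2, Fcgr1 and Tyrobp among them, and were called in neither knockdown. Only Cd14 of this list had a group mean over 8. The summed level of the list was 10.55 to 10.60 (log2) in control siRNA, 10.46 to 10.54 in p53 siRNA, 10.60 to 10.63 in control ASO and 10.57 to 10.62 in Pint ASO. For Des, 10 of 12 skeletal muscle markers were tested, 0 were called with p53 siRNA and 1, Acta1, rose with the Pint ASO by 0.34 (SE 0.08). Their summed level was 10.92 to 10.93 in control siRNA, 10.852 to 11.002 in p53 siRNA, 10.80 to 10.93 in control ASO and 11.001 to 11.134 in Pint ASO. All 8 smooth muscle markers were tested, 2 of which rose with p53 siRNA and 2 fell and 1 rose with the Pint ASO. Their summed level was 14.98 to 15.07, 15.06 to 15.12, 14.88 to 14.92 and 14.79 to 14.82 in the same order of groups. Of 6 epithelial markers 5 were tested. The summed level of the list was 10.36 to 10.44 in control siRNA, 10.32 to 10.35 in p53 siRNA, 10.13 to 10.19 in control ASO and 9.97 to 10.06 in Pint ASO. Bright genes weigh most in this sum, and the controls differed too. Krt18 fell by 0.20 (SE 0.05) with p53 siRNA and Cdh1 by 0.68 (SE 0.07) with the Pint ASO, and neither passed in the other knockdown. The other tested markers passed in neither. Krt5 changed by 0.10 (SE 0.06) and 0.09 (SE 0.07), Krt8 by -0.03 (SE 0.11) and -0.02 (SE 0.12), and Krt14 by -0.12 (SE 0.09) and -0.01 (SE 0.10). Of 6 endothelial markers tested, 0 were called with p53 siRNA, and Kdr rose by 0.77 (SE 0.11) and Tek fell by 0.17 (SE 0.05) with the Pint ASO. Of 5 adipocyte markers tested, Pparg and Lpl rose by 0.21 (SE 0.05) and 0.86 (SE 0.07) with p53 siRNA and Lpl fell by 0.51 (SE 0.08) with the Pint ASO. The part of any of these cells in the falls of the 9 genes was not tested.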

How the data were processed

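RNA of 11 samples was hybridized to Affymetrix mouse arrays, for which the main and the supplementary methods name different models. Only the supplementary methods describe a whole-transcript labelling kit. The deposited values are log2 intensities per probe set made by the authors with RMA (version not stated). Their depth is set by the number of arrays. Probe sets were named through the platform annotation, and a gene with several was read from the brightest. Probe sets that exceeded 6 (log2) in 2 or more arrays of any group were kept. A single limma fit (version 3.58.1, R 4.3.3) covered the 4 groups, with Benjamini-Hochberg adjustment over all 26038 probe sets and a call at an adjusted p under 0.05. This was tested on simulated data. Columns of values with no sample numbered 0. The 9 genes, the lists of related genes and the markers were chosen with earlier results of these data known. Named were the 9 genes, up to 4 called genes of each list by largest change, the 10 genes with the largest smaller fall, those ranked around the last of the 9, and the 5 most like their mean. Adam22 as a member of a small count, Anxa6, Phka2, Mpdu1, Eif4a1, Cd14, other cell type markers and uncalled relatives were named after their values were seen. Promoter sequences are from RefSeq and matched all 9 genes. Alternatives were the filter, centring, a further quantile normalization, an intensity trend, each arm alone, a replicate block, unnamed probe sets, the mean of several probe sets and each array left out.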

Additional observations from a re-analysis of the deposited data

Results flagged for a closer look

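The effects of the 2 knockdowns differed, by limma's test of the difference between them (adjusted p under 0.05), for 24 of the related genes named above, each given here as the Pint ASO change minus the p53 siRNA change on the log2 scale. Around Gpx3 the differences were Sod3 -1.54, Selenop -0.90, Gpx4 -0.45, Gclc 0.56 and Gss 0.57. In elongation they were Ell 0.54, Supt6 0.36 and Ell2 0.34. Among ephrins they were Efnb2 0.83, Efna5 0.44, Efnb1 0.32 and Efna2 -0.50, and among Eph receptors Epha3 -1.40, Epha2 1.15 and Ephb4 -0.50. Ppp5c differed by 0.31, and around Ikbke the differences were Irf7 -1.26, Tbk1 0.40 and Rela 0.34. Among genes of the ADAM family they were Adam23 -0.64, Adam19 0.57 and Adam15 -0.23, and among desmin partners Synm 0.52 and Sync -0.31. Without an array the call of the difference was lost for Adam15 (5 arrays, adjusted p of 0.0530 to 0.0870), Sync (2 arrays, the first of control siRNA and the first of control ASO, 0.0509 and 0.0678), and Gpx4 and Tbk1 (the second control ASO array, 0.0784 and 0.0759).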

How the results depend on the processing

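The values of both knockdowns chose the 9 genes, so refits of the same arrays were likely to keep their falls and give them no support. No change of the 9 genes in a knockdown reversed under 20 alternatives. All 9 were called lower with p53 siRNA in each. With the Pint ASO they were called lower in each except with each arm fitted alone, which left 6. That fit also gave 10 related genes called with the Pint ASO in place of 38 and 190 genes lower in both knockdowns in place of 483, and gives no contrast between controls. Between controls 1 of the 9 genes was called in place of 0 with an intensity trend and without unnamed probe sets. Leaving out each array in turn gave 0 to 1 there, 23 to 34 related genes with the Pint ASO (23 without the first control ASO array or the first Pint ASO array, 24 without the second control ASO array), 18 to 24 with p53 siRNA, 27 to 37 for the difference between effects and 293 to 435 genes lower in both (293 without the first control ASO array). Leaving out a control ASO array leaves 1, assumed to vary like the other groups. Of 1485 values of named genes with 1 array left out, 95 lost a call, 7 gained one and 6 moved by more than the spread, and with each arm fitted alone 17 of 84 lost a call.

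Replicate numbers were not taken to pair the samples. In their deviations, same-numbered arrays of the siRNA arm correlated at -0.28 to -0.04, and the 2 pairs of the ASO arm at -0.05 and -0.42 by title number but at 0.42 and 0.37 by description number, and the control ASO arrays carry other numbers in their titles than in their descriptions. With a replicate block by title number all 9 genes were called in both knockdowns, 26 related genes with the Pint ASO and 324 genes in both, and by description number 28 and 364. The count of the 9 is again one of genes that these contrasts chose. Of 135 values of named genes, 11 lost a call with either block, and 2 gained one by description number. The 2 control ASO arrays limit the precision of every ASO comparison.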
